A study of Mus musculus with 4 samples.

Results

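The genes described here are 10 muscle isoforms of energy metabolism, taken by symbol from liver arrays of Pnpla7 knockout mice and their controls: Ckm, Ckmt2, Pgam2, Eno3, Pygm, Ak1, Fabp3, Cox6a2, Cox7a1 and Cox8b. They were read by 11 of 39429 probes and make up 10 of 30026 genes on the array. The 4 groups, all of strain C57BL/6N, were Pnpla7-/- (KO) liver at 3 weeks of age, WT liver at 3 weeks, Pnpla7-/- liver at 6 weeks and WT liver at 6 weeks. PNPLA7 is a lysophospholipase, and the study asks how phosphatidylcholine breakdown in the liver supplies choline and methyl groups. Each group was 1 one-colour Agilent array hybridised with total RNA pooled from 5 livers, so the spread between animals was not measured, and no difference below has a replicate check or a test. The sex of the animals and the deleted part of Pnpla7 are not given in the sources used here. The genes were chosen because they differed between these arrays, so their values are a description.

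Cells with sudden energy demand keep a phosphate reserve in creatine phosphate, which creatine kinases build and spend, and striated muscle uses its own isoforms of these kinases. Muscle also has its own forms of several glycolytic enzymes, of glycogen phosphorylase, of a fatty acid carrier and of a few small subunits of cytochrome c oxidase, the last complex of the respiratory chain. Hepatocytes mostly use other members of the same families: liver glycogen phosphorylase, the liver fatty acid binding protein and the liver forms of the oxidase subunits.

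Signal is given throughout as the processed intensity divided by the 75th percentile of its array, so that 1 is the level of a probe at that percentile. All spots were unsaturated, and 28714 to 30697 of 43020 spots per array were well above background. The lowest signal well above background was 0.01015 and 0.01353 on the KO arrays at 3 and 6 weeks, and 0.01511 and 0.0102 on the WT arrays. Repeat spots of the same probe put the SD of a log2 ratio at a median of 0.0961 (3 weeks) and 0.12 (6 weeks). It was taken over probes with 10 spots, all well above background, and the pools and the animals have no part in it. The arrays lay on 1 slide, and array position cannot be told apart from group. KO and WT name the arrays by their labels: Pnpla7 itself had a signal of 6.7 in KO and 7.54 in WT at 3 weeks, and 4.42 in KO and 9.65 in WT at 6 weeks, and its probe may lie outside the deleted part. Hepatocyte markers, such as Alb with signals of 350 in KO and 365 in WT at 3 weeks, lay well above background on each array.

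The probes of Ckm, Ckmt2, Pgam2 and Cox7a1 are shown because their positions in mouse build mm9 span more bases than the 60 of the probe, which places each of them across a splice junction of the mRNA. The sequences are those of the array's files, 5′ to 3′.
Ckm, chr7:20002222-20004829, plus strand: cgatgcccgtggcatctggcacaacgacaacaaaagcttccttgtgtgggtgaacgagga
Ckmt2, chr13:91993242-91995390, minus strand: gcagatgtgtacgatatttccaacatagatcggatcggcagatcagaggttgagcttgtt
Pgam2, chr11:5701822-5703040, minus strand: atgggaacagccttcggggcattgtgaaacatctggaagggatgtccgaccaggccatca
Cox7a1, chr7:30970337-30970948, plus strand: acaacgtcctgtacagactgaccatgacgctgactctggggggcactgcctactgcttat

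The other members' probes lay within 60 bases of the same build, on chromosome 2 for Ak1, 7 for Cox6a2 and Cox8b, 11 for Eno3 and 19 for Pygm. Fabp3 had 2 probes, one on chromosome 4 and a brighter one to which the files give no position.

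Both muscle creatine kinases were high on the KO arrays and near or below detection on the WT arrays. Ckm, the cytosolic kinase of the sarcomere, had a signal of 0.831 in KO and 0.00332 in WT at 3 weeks, and of 0.375 in KO and 0.00381 in WT at 6 weeks. Neither WT value was well above background, so Ckm was at least 55.0-fold higher in KO at 3 weeks (log2 at least 5.78) and at least 36.7-fold higher at 6 weeks (log2 at least 5.20). With normexp and quantile normalization, whose offset raises dim signals, the log2 ratios of Ckm were 3.91 and 2.92, and with no filter on dim values they were 7.97 and 6.62. Such a bound sets the KO signal against the lowest signal well above background on the WT array.

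Ckmt2, the kinase of sarcomeric mitochondria that charges creatine with ATP from the matrix, had a signal of 2.93 in KO and 0.00344 in WT at 3 weeks. At 6 weeks it had 3.09 in KO and 0.0324 in WT. The ratio was at least 194-fold at 3 weeks (log2 at least 7.60) and 95.3-fold at 6 weeks (log2 6.58). Normexp and quantile normalization gave 5.65 and 5.31, and no filter gave 9.74 at 3 weeks. Ckmt2 was thus not well above background in WT at 3 weeks and was in WT at 6 weeks, where the signal was still far under that of either KO array.

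The glycolytic and glycogen enzymes differed in the size of their ratios. Pgam2, the muscle phosphoglycerate mutase, gave 0.704 in KO and 0.0281 in WT at 3 weeks, and 0.546 in KO and 0.0271 in WT at 6 weeks. These are ratios of 25.1-fold (log2 4.65) and 20.1-fold (log2 4.33), and with normexp and quantile normalization the log2 ratios were 3.00 and 2.67. Both WT arrays gave nearly the same value, and both KO arrays stood far above them.

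Eno3, the beta enolase of muscle, was well above background on both WT arrays. It stood at 3.9 in KO and 1.28 in WT at 3 weeks and at 3.15 in KO and 1.38 in WT at 6 weeks, which is 3.05-fold (log2 1.61) and 2.28-fold (log2 1.19). Pygm, the glycogen phosphorylase whose loss causes McArdle disease in humans, had 0.669 in KO and 0.221 in WT at 3 weeks, and 0.491 in KO and 0.218 in WT at 6 weeks. Its ratios of 3.02-fold (log2 1.60) and 2.25-fold (log2 1.17) were close to those of Eno3. With normexp and quantile normalization the log2 ratio of Pygm at 6 weeks was 0.99, just within 2-fold.

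Ak1, the cytosolic adenylate kinase that turns ADP pairs into ATP and AMP, lay between these. Its signal was 1.53 in KO and 0.14 in WT at 3 weeks, and 1.01 in KO and 0.139 in WT at 6 weeks, or 10.9-fold (log2 3.45) and 7.32-fold (log2 2.87).

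Fabp3, the fatty acid binding protein of heart and skeletal muscle, had a signal of 2.29 in KO and 0.0738 in WT at 3 weeks on its brighter probe. At 6 weeks the values were 3.1 in KO and 0.0786 in WT. The ratios were 31.1-fold (log2 4.96) and 39.4-fold (log2 5.30), and its second probe gave log2 ratios of 5.37 and 5.62. Normexp and quantile normalization gave 4.18 and 4.47. Fabp3 was among the 3 members that were higher in KO at 6 weeks than in KO at 3 weeks.

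The muscle subunits of cytochrome c oxidase did not share one pattern. Cox6a2, which takes the place of Cox6a1 in heart and skeletal muscle, had a signal of 3.69 in KO and 0.0659 in WT at 3 weeks, and of 3.84 in KO and 0.0647 in WT at 6 weeks. Its ratios were 55.9-fold (log2 5.80) and 59.4-fold (log2 5.89), the closest pair among the 8 genes measured on all 4 arrays. Normexp and quantile normalization gave 5.11 and 5.09.

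Cox8b, which is found in striated muscle and in brown fat of mice, had 2.04 in KO and 0.193 in WT at 3 weeks, against 1.23 in KO and 0.0262 in WT at 6 weeks. The ratio was 10.6-fold (log2 3.41) at 3 weeks and 46.9-fold (log2 5.55) at 6 weeks, although the KO signal was lower at 6 weeks. Normexp and quantile normalization gave 4.07 at 6 weeks. The WT arrays set this apart: WT at 6 weeks was lower than WT at 3 weeks by a log2 difference of -2.88, and no other member that was well above background on both WT arrays differed between them by 2-fold. Of 5 brown fat markers, 2 were brightest on the WT array of 3 weeks. Cidea had 0.114 in KO and 0.351 in WT at that age, and 0.0403 in KO and 0.0289 in WT at 6 weeks. Ucp1, the uncoupling protein that defines brown fat, had 0.0454 in KO and 0.287 in WT at 3 weeks, and 0.178 in KO and 0.206 in WT at 6 weeks. The others did not share this: Elovl3 had 0.0681 in WT at 6 weeks, against 0.0378 in WT at 3 weeks, Dio2 was not well above background in WT, and Adrb3 had 0.714 in KO and 0.44 in WT at 3 weeks and 0.963 in KO and 0.455 in WT at 6 weeks. All 5 summed to 0.925 in KO and 1.12 in WT at 3 weeks, and to 1.24 in KO and 0.761 in WT at 6 weeks. Their part in the values of Cox8b was not tested.

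Cox7a1, the oxidase subunit of heart and skeletal muscle, stood apart from the other 9 genes. It was bright on every array, at 4.07 in KO and 2.72 in WT at 3 weeks and 2.45 in KO and 3.24 in WT at 6 weeks. The log2 ratio was 0.58 at 3 weeks and -0.40 at 6 weeks, so the direction was opposite at the 2 ages and both ratios were within 2-fold. Under each of the 8 other ways of scaling, filtering or averaging the arrays, the 2 directions were the same. Several of these ways leave the ratio of Cox7a1 unchanged by construction.

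**Figure D1:**
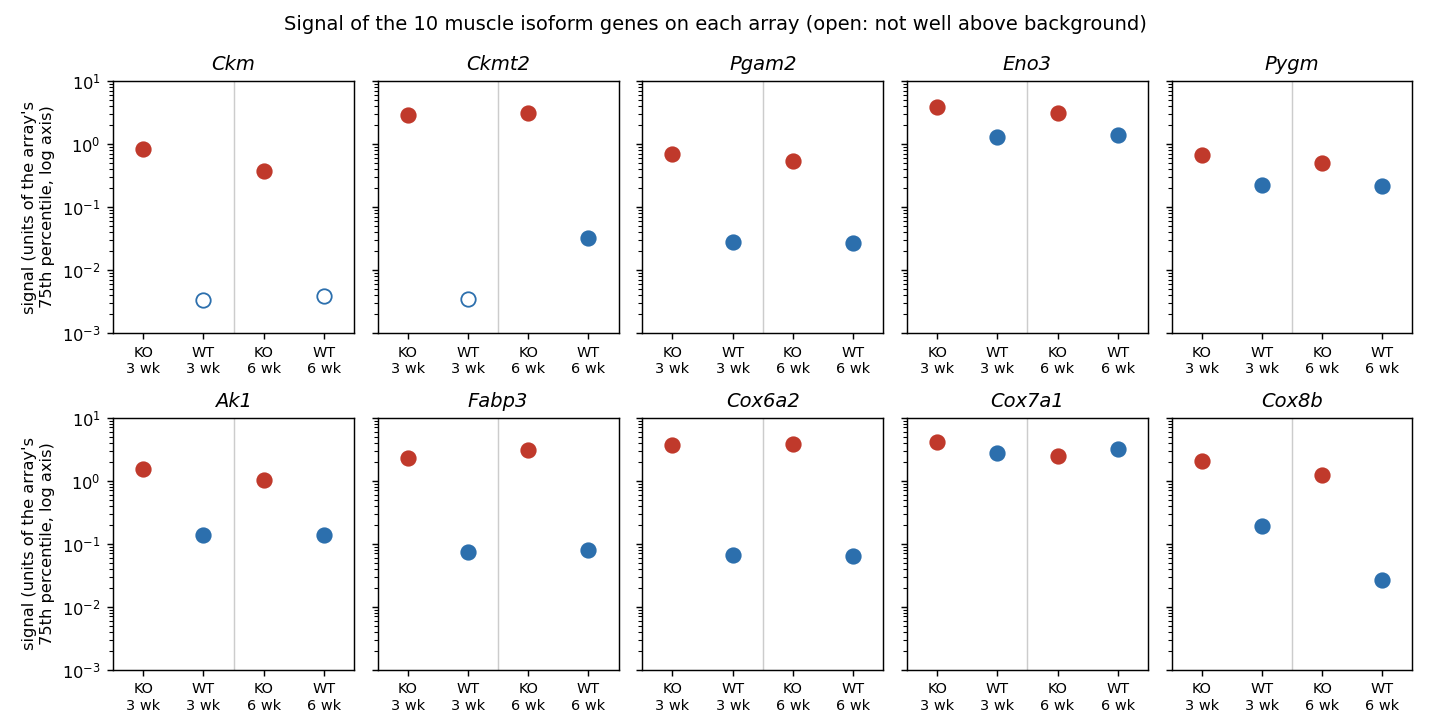
Signal of each of the 10 genes on the 4 arrays, relative to the array's 75th percentile and on a log axis, KO in red and WT in blue, with 1 array per point and open points for values not well above background. For 9 genes both KO points lie above both WT points, while for Cox7a1 KO lies above WT at 3 weeks (4.07 and 2.72) and below it at 6 weeks (2.45 and 3.24).

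Of the 10 genes, 9 were at least 2-fold higher in KO at 3 weeks, where 2.86% of 21758 genes were, and 9 at 6 weeks, where 6.49% of 21386 genes were. All but Cox7a1 passed 2-fold at both ages, which 0.976% of 20496 genes did. None of the 10 was at least 2-fold lower at 3 weeks, as 2.9% of genes were, or at both ages, as 0.342% were. For 9 of the 10 both KO values exceeded both WT values, and 15.3% of 22648 genes had that pattern. Because the genes were chosen on these arrays, nothing is read from these counts. Over the 10 genes the log2 ratio had a median of 4.05 (3 weeks) and of at least 4.77 (6 weeks), beside 0.00 and 0.05 over all genes. Both KO arrays showed all 10 well above background, and the WT arrays showed 8 of them at 3 weeks and 9 at 6 weeks. In bulk liver RNA, more or fewer cells of a type and more or less RNA per cell cannot be told apart.

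The counterparts of these genes in other tissues were measured by 15 genes of the same families, which did not enter the choice of members. None of the 15 was at least 2-fold higher in KO at either age, as 2.86% of all genes were at 3 weeks and 6.49% at 6 weeks. Their median log2 ratio was -0.03 at 3 weeks and 0.02 at 6 weeks. At 3 weeks none was 2-fold lower either, and at 6 weeks 2 were, where 4.54% of all genes were. The liver forms were bright and nearly level. Cox6a1, the general counterpart of Cox6a2, had a signal of 172 in KO and 175 in WT at 3 weeks and of 183 in KO and 180 in WT at 6 weeks. Cox8a, the counterpart of Cox8b, had log2 ratios of -0.06 and 0.12, and Cox7a2, that of Cox7a1, had 0.07 and 0.17.

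In the glycolytic families, Pgam1, the general mutase, had log2 ratios of 0.09 and -0.10 at the 2 ages. Eno1, the general enolase, which has close copies in the mouse genome that its probe may also read, had -0.04 and 0.01, and Eno2, the neuronal form, had 0.16 and 0.03. Pygl, the liver glycogen phosphorylase, had -0.26 and -0.07, and Pygb, the brain form, had -0.01 and -0.55. In each of these 3 families the muscle isoform had the highest ratio at both ages. The members were chosen on these arrays and the counterparts were not, so nothing is read from this ranking.

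Among adenylate kinases, the mitochondrial forms Ak3 and Ak4 had log2 ratios of -0.25 and -0.09 at 3 weeks and of 0.40 and 0.29 at 6 weeks. Fabp1, the liver fatty acid binding protein, had -0.04 and -0.27, and Fabp4, the adipocyte form, had 0.70 and 0.11. The 2 genes at least 2-fold lower at 6 weeks were Fabp5, an epidermal form, with a signal of 17.6 in KO and 44.7 in WT (log2 -1.35), and Ckb, the brain creatine kinase, with 0.16 in KO and 0.322 in WT (log2 -1.01). At 3 weeks these had 0.27 and -0.02. Ckmt1, the ubiquitous mitochondrial creatine kinase, had -0.09 and 0.28, so neither partner of the muscle creatine kinases was higher by 2-fold at either age.

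**Figure D2:**
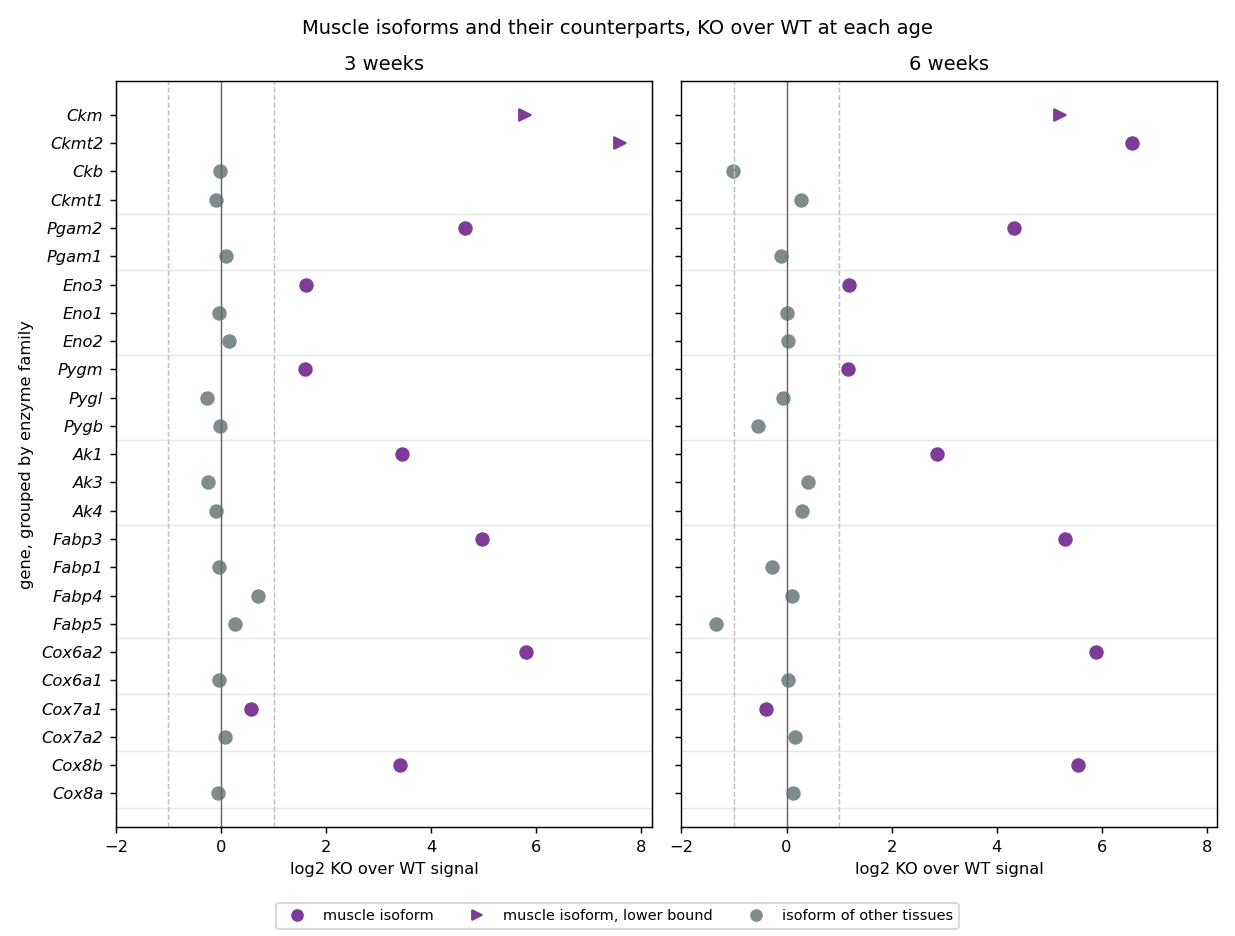
Log2 ratio of KO over WT signal at 3 weeks (left) and 6 weeks (right) for the 10 muscle isoforms (purple, triangles for lower bounds) and their 15 counterparts (grey), grouped by enzyme family, with dashed lines at 2-fold. The grey points lie between -0.26 and 0.70 at 3 weeks and between -1.35 and 0.40 at 6 weeks, and Cox7a1 is the only purple point inside the dashed lines at either age.

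On the KO arrays 7 of the 10 members were lower at 6 weeks than at 3 weeks. Over the 10 genes the median log2 difference was -0.41, beside 0.06 over all genes. The share of all genes lower by any amount was not counted, so nothing is read from the count of 7. Ckm was the member past 2-fold, with 0.375 in KO at 6 weeks, against 0.831 in KO at 3 weeks (log2 -1.15); 6.26% of all genes were at least 2-fold lower in this comparison and 6.02% at least 2-fold higher. Cox8b and Cox7a1 both had -0.73, Ak1 -0.60, Pygm -0.45, Pgam2 -0.37 and Eno3 -0.31. Fabp3, at 0.43, and Ckmt2 and Cox6a2, at 0.07 and 0.06, were higher in KO at 6 weeks. All 5 cytosolic enzymes, Ckm, Pgam2, Eno3, Pygm and Ak1, were lower in KO at 6 weeks, while Fabp3, the cytosolic fatty acid carrier, was higher. The proteins of mitochondria were divided, with Ckmt2 and Cox6a2 level and Cox8b and Cox7a1 lower. This grouping was made with the values known and rests on 1 array per group, and a part of cell compartment was not tested.

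Where the WT signal is small beside KO, the excess of KO over WT signal largely repeats the KO difference between ages given above. This excess can be compared between ages within a probe. At 6 weeks it was 44.8% of that at 3 weeks for Ckm, 61.0% for Pygm, 62.8% for Ak1, 64.9% for Cox8b, 67.6% for Eno3 and 76.8% for Pgam2. It was 104% for Ckmt2 and for Cox6a2 and 136% for Fabp3. For Cox7a1 KO exceeded WT by a signal of 1.34 at 3 weeks and was under it at 6 weeks, with a difference of -0.783.

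On the WT arrays, 6 of the 9 members with a value at both ages or a bound lay within a log2 difference of 0.11 either way between 6 and 3 weeks: Pgam2, Eno3, Pygm, Ak1, Fabp3 and Cox6a2. Cox7a1 was higher in WT at 6 weeks by 0.25. Ckmt2 was at least 2.14-fold higher, at 0.0324 in WT of 6 weeks, against 0.00344 in WT of 3 weeks, where 3.64% of 21169 genes were at least 2-fold higher. Cox8b was 7.35-fold lower, where 5.85% of genes were at least 2-fold lower. Ckm was not well above background on either WT array.

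Fibre type markers were read on the same arrays. All 10 fast fibre markers were at least 2-fold higher in KO at 3 weeks and 9 of 10 at 6 weeks, where 2.86% and 6.49% of all genes were. The marker lists were chosen with earlier results of these data known, so their counts are a description. The median log2 ratio of the fast markers was at least 7.45 at 3 weeks and at least 4.78 at 6 weeks. The summed signal of the fast markers was 51.1 in KO and 0.622 in WT at 3 weeks and 28.7 in KO and 1.03 in WT at 6 weeks. Myh2, Myh1, Tnnc2 and Tnnt3 led the list: Myh2, a fast myosin heavy chain, gave 4.56 in KO and 0.00428 in WT at 3 weeks and 5.39 in KO and 0.0514 in WT at 6 weeks, and Tnnc2, the fast troponin C, had log2 ratios of 8.73 and 5.87. A further 7 markers were of slow fibres, most of them shared with the heart ventricle, though not the slow skeletal troponins Tnni1 and Tnnt1. Of the 7, 6 were at least 2-fold higher at each age, and 5 at both, where 0.976% of all genes were. The 7 summed to 5.95 in KO and 0.99 in WT at 3 weeks and to 6.25 in KO and 1.36 in WT at 6 weeks. Tnni1 had log2 ratios of at least 2.52 and at least 2.48 at the 2 ages, and Tnnt1 had 1.74 and 0.43.

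Between the KO arrays, 9 of the 10 fast markers were lower at 6 weeks than at 3 weeks. The median log2 difference was -0.94, beside 0.06 over all genes, and the share of all genes lower by any amount was not counted. Myh4, the fastest myosin heavy chain, had a signal of 0.217 in KO at 6 weeks, against 5.04 in KO at 3 weeks (log2 -4.54). Myh2, the heavy chain of fast oxidative fibres, was the fast marker that was higher, at 0.24. The slow and ventricular markers had a median of -0.02, and 4 of the 7 were lower at 6 weeks. Casq2 had -1.13, Tnnc1 -0.67, Tnnt1 -0.61 and Myh7, the slow heavy chain, -0.02. The other 3 were higher: Tnni1 at 0.08, Myl3 at 0.60 and Myl2, the regulatory light chain, at 1.28. The 10 energy isoforms lay between -1.15 and 0.43, with a median between those of the marker lists. The part of fibre type in the members' values was not tested.

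**Figure D3:**
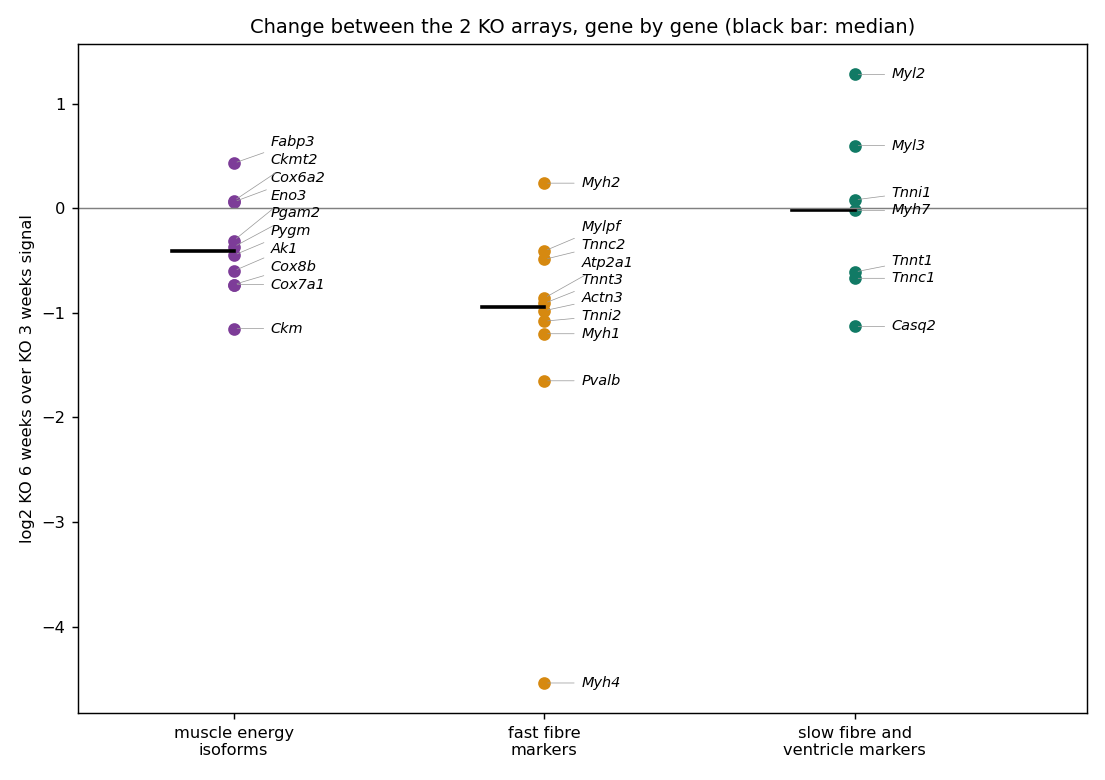
Log2 difference in signal between the KO array at 6 weeks and the KO array at 3 weeks for the 10 energy isoforms, 10 fast fibre markers and 7 slow fibre and ventricle markers, 1 point per gene with its name and a black bar at the list's median. The medians are -0.41, -0.94 and -0.02, and Fabp3, Ckmt2 and Cox6a2 are the energy isoforms above 0.

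Heart markers did not show the pattern of the fibre markers. Of 8 heart markers, 6 had a ratio at 3 weeks, with 0 at least 2-fold higher, as 2.86% of all genes were. At 6 weeks 5 had one, with 2 at least 2-fold higher, as 6.49% of all genes were. None passed at both ages, as 0.976% of all genes did, so nothing is read from that. Their summed signal, dim values included, was 0.768 in KO and 0.943 in WT at 3 weeks and 0.969 in KO and 0.651 in WT at 6 weeks. Most of it was Myl4, at 0.583 in KO and 0.542 in WT at 3 weeks and 0.558 in KO and 0.483 in WT at 6 weeks. Tnni3, the cardiac troponin I, and Ryr2, the cardiac calcium release channel, were not well above background on any array. Nppa, the atrial natriuretic peptide, had a signal of 0.0253 in KO and 0.0225 in WT at 3 weeks and of 0.0281 in KO and 0.0213 in WT at 6 weeks. Tnnt2, the cardiac troponin T that developing skeletal muscle also expresses, was higher in KO at 6 weeks alone, by 1.94. Mybpc3, cardiac myosin binding protein C, went opposite ways, at -3.39 at 3 weeks and at least 3.05 at 6 weeks.

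Smooth muscle markers stayed within 2-fold at both ages, 6 of 6, and summed to 6.15 in KO and 5.75 in WT at 3 weeks and to 4.79 in KO and 5.07 in WT at 6 weeks. White fat markers also had none past 2-fold, with sums of 0.82 in KO and 0.643 in WT at 3 weeks and of 0.496 in KO and 0.475 in WT at 6 weeks, and Lep was not well above background on any array. Of 5 markers of exocrine pancreas, Cpa1, Pnlip and Prss2 were well above background on the KO array at 6 weeks alone, with a signal of 0.0882 for Cpa1 there. The 5 summed to 0.383 in KO and 0.43 in WT at 3 weeks and to 0.624 in KO and 0.469 in WT at 6 weeks. Most of each sum was Ctrb1, at 0.299 in KO and 0.366 in WT at 3 weeks and 0.448 in KO and 0.406 in WT at 6 weeks. The part of these tissues in the members' values was not tested. The 7 hepatocyte markers with a probe had medians of 0.01 and 0.21, with none past 2-fold.

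A further 16 genes of muscle energy metabolism, many of them also used by other tissues, were read. Of the 15 with a ratio at 3 weeks, 4 were at least 2-fold higher in KO, where 2.86% of all genes were. At 6 weeks 3 of 13 were, where 6.49% of all genes were, and 1 was at both ages, where 0.976% were. None was 2-fold lower, as 2.9% of all genes were at 3 weeks and 4.54% at 6 weeks. The median log2 ratio was 0.76 at 3 weeks and 0.56 at 6 weeks. Mb, myoglobin, which stores oxygen in red muscle, was the 1 past 2-fold at both ages. Its signal was 2.72 in KO and 0.00362 in WT at 3 weeks and 2.89 in KO and 0.0452 in WT at 6 weeks, or log2 ratios of at least 7.49 and 6.00. Mb shared with Ckmt2 a WT signal that was well above background at 6 weeks alone, and a KO level that was much the same at both ages. The first of these also held for the fibre markers Myh1, Myh2, Tnnt3 and Myl2. Between the WT arrays, 5 of the 7 fast markers with a ratio were at least 2-fold higher at 6 weeks, where 3.64% of all genes were.

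Slc2a4, the insulin-responsive glucose transporter, had log2 ratios of 0.90 and 1.48, and Slc25a4, the muscle ADP/ATP carrier of mitochondria, had 0.78 and 1.52. Cpt1b, the muscle form of the enzyme that commits fatty acids to mitochondria, had 1.60 and 0.83. Chosen after their values were seen to complete the count, Ampd1, muscle AMP deaminase, had at least 2.73 at 3 weeks and Slc16a3, a lactate exporter, 1.18. Ldha, lactate dehydrogenase A, had 0.10 and -0.32, and Aldoa, aldolase A, had 0.57 and 0.41, higher in KO at both ages and within 2-fold.

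Of 14166 named genes measured above background on every array, the 8 whose pattern was closest to the mean of the 10 were Mybpc1, Cacna1s, Myl3, Flnc, Hrc, Myh7, Myom1 and Ppp1r27. Likeness was the Euclidean distance over the 4 arrays between log2 profiles centred on their own mean, and it ran from 0.30 for Mybpc1 to 1.80 for Ppp1r27. Mybpc1 had a signal of 1.05 in KO and 0.059 in WT at 3 weeks and of 0.713 in KO and 0.0579 in WT at 6 weeks. With 4 arrays this ranking rests mostly on the difference between KO and WT.

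Promoters were read for members that were high together. RefSeq gives starts for 9 of the 10 genes in build GRCm38.p6, 12 starts in all, and the 250 bases before each were searched on both strands. The letters CAGCTG, a form of the E-box CANNTG that myogenic factors are known to bind, were in 6 of the 9 genes, against 14.7% of 27025 genes, and in 7 of 12 starts, against 13.0% of 32851 starts. The members were chosen with results known and Ak1 has 4 of the 12 starts, so the shares are a description. The broader CANNTG, which includes CAGCTG, was in 9 of the 9, against 69.3% of all genes, and a MEF2 site, named after the factors that bind it in muscle genes, was in 1 of the 9, Pgam2, against 3.42%. The letters TATAAA were also searched and were in 0 of the 9, against 14.3% of all genes. A match shows letters and not a bound site.

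Shown are the promoters of Ckm, Pgam2, Pygm and Cox8b, which hold CAGCTG and belong to genes past 2-fold at both ages, and that of Cox7a1, the gene that was not, in whose window these letters were not found. Their presence does not follow the 2-fold count, since the windows of Eno3 and Fabp3, both past 2-fold at both ages, also lack them. Each runs 5′ to 3′ towards the gene, ends at the base before its start, and has CAGCTG in capitals.
Ckm, chr7:19410844-19411093, plus strand: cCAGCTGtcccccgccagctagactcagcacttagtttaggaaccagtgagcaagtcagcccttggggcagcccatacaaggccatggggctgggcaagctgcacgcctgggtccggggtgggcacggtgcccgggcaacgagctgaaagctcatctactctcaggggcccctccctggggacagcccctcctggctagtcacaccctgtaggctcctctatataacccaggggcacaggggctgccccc
Pgam2, chr11:5803797-5804046, minus strand: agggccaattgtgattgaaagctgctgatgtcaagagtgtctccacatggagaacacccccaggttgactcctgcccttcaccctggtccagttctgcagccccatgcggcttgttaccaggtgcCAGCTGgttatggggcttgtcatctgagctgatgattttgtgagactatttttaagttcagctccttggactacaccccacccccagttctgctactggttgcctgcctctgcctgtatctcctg
Pygm, chr19:6384158-6384407, plus strand: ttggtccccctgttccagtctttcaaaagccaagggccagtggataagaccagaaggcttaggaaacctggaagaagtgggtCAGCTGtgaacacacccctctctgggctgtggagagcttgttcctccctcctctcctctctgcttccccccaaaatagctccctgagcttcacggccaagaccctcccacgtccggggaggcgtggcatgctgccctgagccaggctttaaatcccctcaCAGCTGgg
Cox8b, chr7:140900447-140900696, minus strand: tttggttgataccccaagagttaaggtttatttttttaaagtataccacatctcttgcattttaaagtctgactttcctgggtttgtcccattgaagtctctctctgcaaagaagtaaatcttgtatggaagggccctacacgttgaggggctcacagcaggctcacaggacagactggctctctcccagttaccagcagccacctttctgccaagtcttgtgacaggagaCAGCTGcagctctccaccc
Cox7a1, chr7:30183921-30184170, plus strand: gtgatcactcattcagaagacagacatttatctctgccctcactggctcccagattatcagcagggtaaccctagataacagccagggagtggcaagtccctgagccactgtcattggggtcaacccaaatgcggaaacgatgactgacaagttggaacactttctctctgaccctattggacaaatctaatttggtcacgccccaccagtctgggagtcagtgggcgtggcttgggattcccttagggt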

How the data were processed

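Total RNA from C57BL/6N liver was pooled from 5 animals per group and hybridised to 4 one-colour arrays, per the labels and the series' own description. Spot brightness is a deposited intensity that the authors obtained with Agilent Feature Extraction 11.5.1.1, which detrended and background-subtracted each array without scaling between arrays, per the file headers. Flags are other values, 0 or 1, as deposited. A separate value table of the authors gives the intensity over the array's 75th percentile (ratio to that quotient 0.9998 to 1).

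From there, each processed intensity was divided by the 75th percentile over non-control spots and log2 was taken. The 189 to 252 outlier spots per array were left out, spots of a probe averaged, and the probe brightest on average used. Genes well above background on neither array of a comparison were left out of it. Where 1 of the arrays was, the ratio is a bound. No test was run, since a group is 1 array, and genes were counted at 2-fold. The computation of ratios was tested on simulated data.

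The members and lists were chosen with earlier results of these data known. Named were all members, the 15 counterparts used here, up to 4 genes of the remaining lists, ranked by the lower ratio of the ages, and the 8 genes nearest in pattern. Any other gene was named after its values were seen. Alternatives were normexp background correction (offset 50) with quantile normalization, quantile normalization alone, median scaling, the authors' value table, probes of a gene averaged, outlier spots included, no filter, genes well above background on all 4 arrays, and thresholds of 1.5-fold and 3-fold. Tools were Python 3.11.15, numpy 2.4.6, pandas 2.3.3, matplotlib 3.10.9, R 4.3.3 and limma 3.58.1. A further gene of that family list is not reported here and enters no count. Tf has no probe under its symbol in the files used here.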

Additional observations from a re-analysis of the deposited data

Results flagged for a closer look

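Cox7a1 went opposite ways at the 2 ages, with a log2 ratio of KO over WT of 0.58 at 3 weeks and -0.40 at 6 weeks. Each was over 2 times the median SD of repeat spots. That SD is of probes with all spots well above background, and may not hold for the dim genes among those named below, such as Plin1. The difference between the ages was not tested, since each value rests on 1 array per group.

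The same held for 10 genes of the other lists, none of whose differences was tested. The share of all genes that meet this rule was not counted, so nothing is read from the number of 10. The counterparts Ak3, at -0.25 and 0.40, and Fabp5, at 0.27 and -1.35, were 2 of them. Mybpc3, of the heart list, had -3.39 and at least 3.05. Tnnc1, the slow and cardiac troponin C, had -0.35 and 1.29, and Smtn, of smooth muscle, had 0.32 and -0.49. The brown fat markers Cidea and Elovl3 had -1.63 and 0.48, and 0.22 and -0.68. The white fat markers Plin1 and Retn had -0.74 and 0.62, and 0.71 and -0.43, and the pancreas marker Cela1 had 0.69 and -0.29.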

How the results depend on the processing

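No paired analysis was possible because each group has 1 array. No replicate could be left out for the same reason. Of 156 values of single members recomputed under the alternatives, none changed sign, 135 moved by less than the spread between spots of one probe and 21 by more. Many of the 135 could hardly move. The authors' value table holds the same quotient, averaging probes can alter only Fabp3, and neither change of filter alters a measured ratio. With normexp and quantile normalization all members but Eno3 and Cox7a1 moved by more than that spread at both ages. The number of members at least 2-fold higher was 9 at both ages and stayed between 7 and 9 in every alternative. With normexp and quantile normalization the members' median log2 ratio was 3.12 at 3 weeks and 2.80 at 6 weeks, with an offset that by construction raises dim signals, and 309 and 550 of all genes were at least 2-fold higher, against 623 and 1388. With detection required on all 4 arrays, which leaves out Ckm and Ckmt2, the medians were 3.43 and 3.60, and 232 and 699 of all genes were higher. With no filter 1304 and 2197 were. The shift of all genes, added after the data were seen, lay between -0.04 and 0.14 on the log2 scale, with the highest at 6 weeks with no filter. Values of genes dim in WT, and so the sizes for Ckm, Ckmt2, Pgam2, Fabp3, Cox6a2 and Cox8b, are limited by the signal over background on the WT arrays.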
